A study of Rattus norvegicus with 2 samples.

Results

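The H2Aub peaks of rat chromosome 20 were examined, with the proximal segment that holds the major histocompatibility complex (MHC) set against the rest of the chromosome. H2Aub is histone H2A carrying ubiquitin. Members were all listed peaks on chromosome 20, and they numbered 616 of 17207 peaks (3.58%). The segment was taken by position alone, from 1 to 6000000, and held 205 peaks. The remaining 411 peaks lay between the end of the segment and position 55610714, the end of the last peak. No peak crossed the boundary.

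The peaks came from chromatin immunoprecipitation sequencing (ChIP-seq) of myocardium from male rats after 30 min of ischemia, made by tying off the left anterior descending (LAD) artery of the heart. There was 1 library made with an antibody against H2Aub (n = 1) and 1 input library of chromatin without immunoprecipitation (n = 1). Both came from ischemic tissue, and sham tissue was not analysed here. The strain, the age and the number of animals behind each library are not stated in the sources used here. With 1 library of each kind there was no replicate error and no test between conditions, and whether ischemia altered any of these peaks was not tested. All intervals are 95% intervals for counting error within this library pair, and as neighbouring peaks are not independent, intervals over peaks are too narrow.

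H2Aub is placed by polycomb repressive complex 1 (PRC1), whose catalytic subunits are RING1A and RING1B, and it is best known at silenced developmental genes. The rat MHC, named RT1, encodes the class I molecules that present peptides from inside the cell on most nucleated cells, and the class II molecules that present captured antigen on immune cells. Between them lie class III genes, among them cytokines, complement factors and inducible heat shock proteins. Many RT1 genes are near copies of one another and differ in number and sequence between rat strains.

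The gene table used here describes the GRCr8 assembly, which is not shown to be the build of the peak list, so it served only for gene order. It held 67 genes with an RT1 symbol, all on chromosome 20, between places 61 and 495 of the 1360 genes in order along that chromosome. RT1-M2, a class I gene, was at place 61, and the class I genes RT1-CE16 and RT1-CE1 were at places 335 and 376. Class III genes followed, from Lta (place 382) and Tnf (place 383), both cytokine genes, through Hspa1b (place 417), an inducible heat shock protein gene, and C2 (place 426), a complement gene, to Notch4 (place 447), a Notch receptor gene. Class II genes ran from RT1-Da (place 462) to RT1-Ha (place 478), and held among them Tap1 and Tap2 of the peptide transporter and Psmb8 and Psmb9 of the immunoproteasome, at places 469 to 472. Ring1, which encodes the PRC1 subunit RING1A, stood at place 485, just before the class I genes RT1-A2 and RT1-A1 at places 492 and 495. All 65 MHC and neighbouring genes on the list were found on chromosome 20, between places 61 and 505 of its 1360 genes. Which peak lay at which gene was not analysed here, and that the segment holds RT1 in the build of the list is taken from its definition.

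The segment made up 10.8% of the chromosome up to its last peak and held 33.3% of its peaks. It had 34.2 peaks per Mb (29.6 to 39.2) against 8.28 (7.50 to 9.13) in the rest, a ratio of 4.12 (exact conditional interval 3.47 to 4.89). Neighbours within 10 kb of each other were next joined into groups. The segment had 58 such groups and the rest had 210, and the ratio of groups per Mb was 2.28 (1.68 to 3.07). Peaks covered 1.78% of the segment and 0.377% of the rest.

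Peaks were unevenly spread on both sides of the boundary. From the start of the chromosome, the 6 bins of 1 Mb in the segment held 14, 4, 13, 59, 74 and 41 peaks, so the last 3 Mb held most of them. The bin from 4 to 5 Mb had the most on the chromosome. Among the 50 bins of the rest, the last one incomplete, the median was 4 peaks, the highest count was 46 and 18 bins were empty. The peaks of the rest fell mainly into 3 zones, with 206 peaks from 6 to 15 Mb, 81 from 29 to 32 Mb and 65 beyond 47 Mb. Only 33 peaks lay from 15 to 29 Mb and 26 from 32 to 47 Mb.

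**Figure D1:**
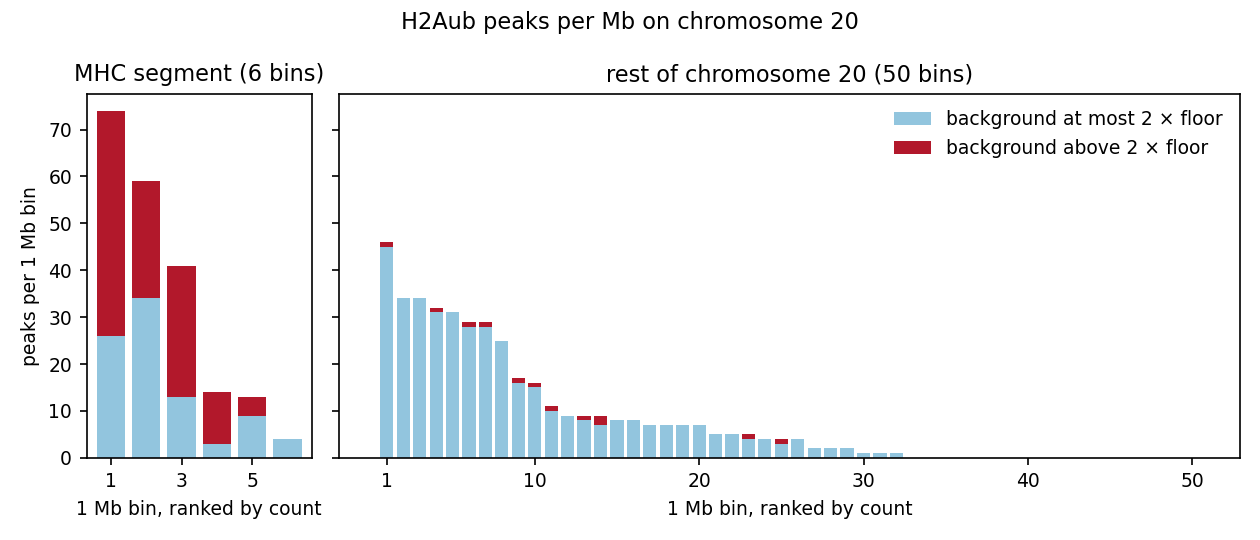
Peaks per 1 Mb bin of chromosome 20, with bins ranked by count on the x axis and the number of peaks on the y axis, for the 6 bins of the MHC segment and the 50 bins of the rest. Blue marks peaks with a local background of at most 2 times the floor and red those above it. The red part reached 48 peaks in the bin with 74, and at most 2 peaks in any bin of the rest.

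Chromosome 20 stayed dense in peaks beyond the boundary. Its next 6 Mb held 175 peaks, and the ratio of the segment to it was 1.17 (0.953 to 1.44), an interval that includes 1. When the autosomes were cut into tiles of 6 Mb from position 1, the segment ranked at place 4 by number of peaks among the 427 tiles with a peak. The median of the other tiles was 23 peaks and the highest was 268.

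The peaks of the segment had a higher local background. This is the number of input fragments, scaled to the ChIP library, that the peak caller expected at the summit, and it was worked out here peak by peak from the listed enrichment and probability. The lowest value anywhere in the list, 1.42 fragments, is called the floor. The median background was 3.45 fragments (2.76 to 4.32) in the segment and 1.47 (1.42 to 1.55) in the rest. A raised background, above 2 times the floor, was found at 116 of 205 peaks in the segment (56.6%, 49.7 to 63.2%). In the rest it was found at 12 of 411 peaks (2.92%, 1.68 to 5.03%), so the shares differed by 53.7 percentage points (46.5 to 60.4). Over the whole list 5.49% of peaks had a raised background. Only 17.6% of segment peaks (13.0 to 23.4%) were at the floor, against 48.9% (44.1 to 53.7%) in the rest.

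Of all 919 autosomal peaks with a raised background, 12.6% lay in this segment, which held 1.20% of autosomal peaks. The 116 such peaks were the most in any of the 427 tiles, and the next tile held 29. By the share of its peaks with a raised background the segment was at place 2 of the 235 tiles with at least 20 peaks, and on the other 7 such tiles of chromosome 20 this share was at most 6.25%. A background above 10 times the floor, found at 0.761% of all peaks, was seen at 7 peaks of chromosome 20. All 7 were in the segment (3.41% of its peaks), 6 of them between positions 4677891 and 4921182. Of the 427 tiles, 5 held more such peaks than the segment, up to 26. The highest background of the chromosome, 19.9 fragments, was at positions 4775425 to 4776065, where the ChIP pileup was 94 fragments (exact Poisson interval 76.0 to 115).

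Most raised backgrounds of the segment came in steps of 0.863 fragments. In 81 of the 116 segment peaks the background was, within 0.0015 fragments, a whole multiple of 0.863, the value that 1 input fragment stacked at the summit would have if the caller's windows were the fragment length, 1 kb and 10 kb. The multiples ran from 4 to 23 with a median of 8. As 0.863 is itself a whole multiple of the steps for 1 kb and 10 kb, a background from those windows can have the same value. How many of the 81 summits had input fragments stacked at the summit itself therefore cannot be told. Of the other raised backgrounds in the segment, 23 were multiples of the step for 1 kb and 12 of that for 10 kb, within the same tolerance. On the other autosomes 89.1% of raised backgrounds were counted as multiples of 0.863, against 69.8% in the segment. The tolerance was wider for high backgrounds, which reached 373 fragments on the other autosomes.

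**Figure D2:**
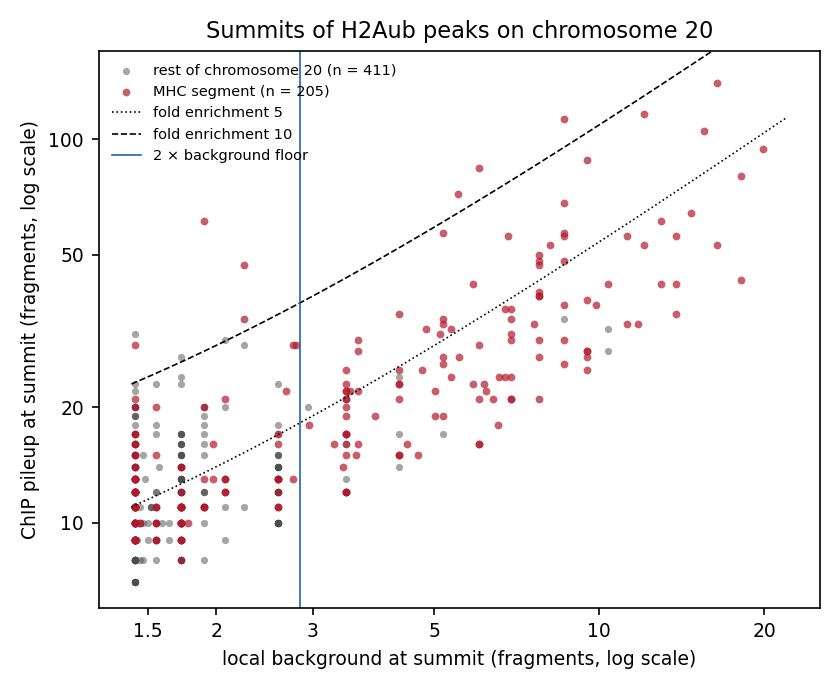
ChIP pileup against local background at the summit of each peak, both in fragments on log scales, for the MHC segment (red, n = 205) and the rest of chromosome 20 (grey, n = 411). Lines mark fold enrichments of 5 and 10 and the limit of 2 times the floor. Right of that limit lie 116 segment peaks and 12 peaks of the rest, and the segment reaches a pileup of 140 fragments where the rest ends at 34.

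The ChIP pileup, the number of fragments stacked at the summit, was higher in the segment. A peak needs more fragments to be listed where the background is higher, at least 17 at the median of the raised backgrounds in the segment and 7 at the floor, so listed peaks of raised background had to have higher pileups. The median pileup was 20 fragments (16 to 22) in the segment and 11 (10 to 11) in the rest. More than 20 fragments were stacked at 100 segment peaks (48.8%, 42.0 to 55.6%) and at 14 peaks of the rest (3.41%, 2.04 to 5.64%). On the other autosomes the share was 4.52%. Among peaks without a raised background it was 10.1% in the segment and 2.51% in the rest. In the segment 22 peaks (10.7%) exceeded 50 fragments, and in the rest none of 411 did (upper Wilson limit 0.926%), against 0.773% on the other autosomes. Of these 22 peaks, 21 had a raised background. Among the 89 segment peaks without a raised background the median pileup was 12 fragments (11 to 13), and among the 116 with one it was 27.5 (24 to 32).

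Fold enrichment, the ratio of pileup to background with 1 added to each, was not higher in the segment at the median. Its median was 4.44 (4.23 to 4.56) in the segment and 4.55 (4.40 to 4.55) in the rest. Without raised backgrounds the order turned, with medians of 4.70 (4.40 to 5.01) and 4.55 (4.40 to 4.55). The middle 50% of values spread more widely in the segment, from 3.79 to 5.50, than in the rest, from 4.03 to 5.13. Values of 5 or more were seen at 66 segment peaks (32.2%) and 113 peaks of the rest (27.5%), against 30.5% of all peaks, and the difference of 4.70 percentage points had an interval of -2.82 to 12.5 that includes 0. With a higher background, a smaller enrichment was enough to be listed. At the floor the smallest value past the cutoff was 3.31, and at 6.19 fragments, the median of the raised backgrounds in the segment, it was 2.50. Among peaks without a raised background, 39.3% of those in the segment (35 of 89) and 28.1% of those in the rest (112 of 399) reached 5, a difference of 11.3 points (0.696 to 22.5). The segment peaks left out had a median of 4.10, and 26.7% of them reached 5. The turned order of the medians and the larger difference follow from leaving them out, a split chosen after values were seen. Of the 62 segment peaks outside the 4 stretches of raised background described further on, 19 (30.6%) reached 5.

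Very high fold enrichments were more frequent in the segment. At least 10 was reached by 7 of its 205 peaks (3.41%, 1.66 to 6.88%) and by 3 of 411 in the rest (0.730%, 0.249 to 2.12%), against 0.564% of all peaks. The difference was 2.68 percentage points (0.447 to 6.18). No other of the 427 tiles held more than 5 such peaks. Without raised backgrounds the counts were 4 of 89 in the segment and 3 of 399 in the rest.

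The 5 highest peaks of the segment were of different kinds. The peak at positions 3795785 to 3796533 had the highest fold enrichment of the whole list, 21.4, with 61 fragments (46.7 to 78.4) over a background of 1.90. It was 749 bp wide. Next came the peak at 4942568 to 4943540, with 14.8 from 47 fragments (34.5 to 62.5) over 2.24, and the peak at 2705916 to 2706442, with 12.4 from 29 fragments (19.4 to 41.6) over the floor. These 3 had no raised background. The other 2 did. At 4773074 to 4773770 a fold enrichment of 12.1 came from 84 fragments (67.0 to 104) over 6.04. At 4676270 to 4676955 a fold enrichment of 11.8 came from 113 fragments (93.1 to 136) over 8.63, and this peak had the highest −log10 q of the chromosome, 77.8. With the pileup intervals carried over, the fold enrichment was 16.4 to 27.4 at the first peak and 11.0 to 19.6 at the second. As these overlap, counting error leaves the order of these 2 peaks unsettled, and likewise the order among the other 3.

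In the rest of the chromosome the highest fold enrichment was 13.2, at 48979452 to 48980605, from 31 fragments (21.1 to 44.0) over the floor. The peak at 47302422 to 47308974 followed with 10.3 from 27 fragments (17.8 to 39.3) and was the widest of the chromosome, 6553 bp. Close behind, the peak at 55593361 to 55594865 had 10.1 from 30 fragments (20.2 to 42.8). Counting error leaves the ranking of these 3 peaks unsettled, since their pileups had overlapping intervals. The next 2, at 48981187 to 48982671 and 49554969 to 49556709, had 9.92 and 9.51 from 23 and 22 fragments over the floor.

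By −log10 q, 103 segment peaks (50.2%, 43.5 to 57.0%) reached 5 against 82 peaks of the rest (19.95%, 16.4 to 24.1%). On the other autosomes 24.5% of peaks did. Among peaks without a raised background the shares were 34.8% in the segment and 19.8% in the rest. At a given fold enrichment −log10 q rises with the number of fragments. The 2 peaks next in −log10 q within the segment were those with most fragments. They lay at 156286 to 156962, with 140 fragments (118 to 165) over 16.4 and a −log10 q of 73.5, and at 5415157 to 5415911, with 116 fragments (95.9 to 139) over 12.1 and a −log10 q of 65.7. The highest values of the rest, 26.2, 20.2 and 18.8, were at the 3 peaks with its highest fold enrichments. If 3 fragments were taken from each summit, 16.1% of segment peaks (11.7 to 21.7%) would no longer meet the weakest listed −log10 p, against 37.5% (32.9 to 42.2%) in the rest. Counted in fragments, calls in the rest thus stood closer to the cutoff. The same 3 fragments are a larger part of the median pileup of the rest, 11, than of that of the segment, 20. This loss was not split by raised background.

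Median widths were not separated by their intervals. The median was 350 bp (314 to 393) in the segment and 316 bp (297 to 338) in the rest. At least 1000 bp was reached by 22 segment peaks (10.7%) and 28 peaks of the rest (6.81%), against 8.66% of all peaks, and the interval of the difference, -0.628 to 9.31 points, includes 0. The smallest width, 200 bp, was less frequent in the segment, at 5.85% (3.38 to 9.95%) against 13.9% (10.9 to 17.5%). Among peaks without a raised background it was 11.2% against 14.3%, and that difference of -3.05 points had an interval of -9.33 to 5.74. The widest peaks of the segment measured 5324 bp at 3085522 to 3090845, 3816 bp at 3076824 to 3080639 and 2074 bp at 3161064 to 3163137. Their fold enrichments were 6.77, 4.43 and 3.95, all over raised backgrounds. After the peak of 6553 bp, the widest of the rest measured 3046 bp, at 6498699 to 6501744, and 2617 bp, at 55600172 to 55602788. Across peaks, wider ones tended to have higher fold enrichments in the segment (Spearman's rho = 0.303, n = 205) and in the rest (rho = 0.357, n = 411). These are descriptions over peaks of 1 library.

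Gaps between neighbours were shorter in the segment, with a median of 2.07 kb (1.44 to 3.36) against 10.6 kb (8.03 to 16.0). At most 1000 bp separated 34.3% of neighbours there (28.1 to 41.1%) and 23.2% in the rest (19.3 to 27.5%), a difference of 11.1 points (3.61 to 18.9). Without the peaks of raised background the medians were 11.4 kb and 11.3 kb. Runs were defined as 5 or more peaks, each within 10 kb of the next. In the segment 9 runs held 66.3% of its peaks (59.6 to 72.5%). In the rest 14 runs held 24.1% (20.2 to 28.5%). Without the peaks of raised background, 2 runs held 27.0% of the segment peaks and 13 runs held 23.1% of those of the rest. Leaving them out took 116 peaks from the segment and 12 from the rest, with lengths unchanged. The longer gaps and fewer runs of the segment follow from this removal and are a description.

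**Figure D3:**
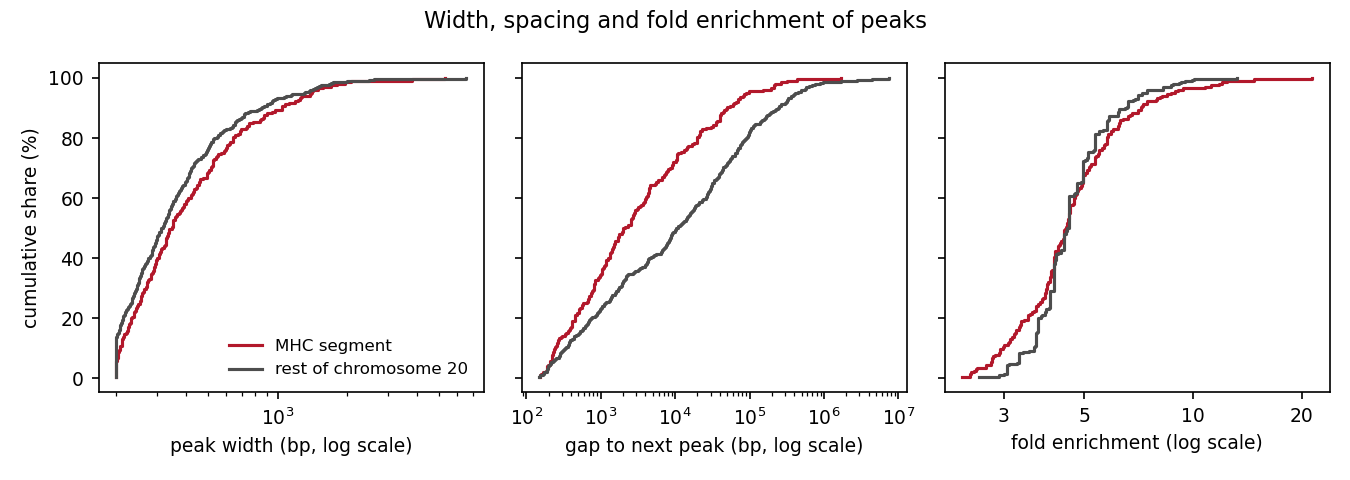
Cumulative share of peaks (y axis, %) by width, by gap to the next peak and by fold enrichment (x axes, log scales), for the MHC segment (red) and the rest of chromosome 20 (grey). The curves of gaps lie apart, with medians of 2.07 and 10.6 kb, while those of width lie close and those of fold enrichment cross near the medians of 4.44 and 4.55.

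The 5 runs with most peaks on the chromosome all lay in the segment. The largest, at 3042637 to 3104359, had 25 peaks over 61.7 kb and a median fold enrichment of 5.73. Peaks covered 38.7% of it, and 7 of the 25 had a raised background. The next 3 runs were of the other kind. At 4873254 to 4943540, 17 of 22 peaks had a raised background, at 5333621 to 5379354, 18 of 21, and at 4755338 to 4801350, 18 of 20. Their median fold enrichments were 4.43, 4.74 and 4.19 and their median pileups 25.5, 34 and 31.5 fragments. The other, at 3134898 to 3163137, had 17 peaks, 13 of them with a raised background, and a median fold enrichment of 3.19. One run of the segment had no peak of raised background. It lay at 4424181 to 4445721 and had 6 peaks with a median fold enrichment of 5.82 and a median pileup of 13.5 fragments.

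Every run of the rest had fewer peaks than the 5 largest runs of the segment, but some were densely covered. The run at 47296247 to 47316960 had 13 peaks that covered 79.0% of 20.7 kb. Its fold enrichment had a median of 4.96 and its background a median of 1.55. The run at 8556635 to 8578426 had 10 peaks over 18.3% of 21.8 kb. Among the runs of 9 peaks in the rest, the one at 7709842 to 7733025 had a median fold enrichment of 4.96 with all 9 backgrounds below the limit of a raised one. The one at 7920582 to 7949896 had a median of 4.40, also without a raised background. The one at 55591433 to 55610714 had a median of 4.13, a median background of 2.59 and 2 peaks of raised background. Of the 14 runs of the rest 2 had any peak of raised background, against 8 of 9 in the segment.

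The raised backgrounds lay in few places. When those at most 100 kb apart were joined, 108 of the 116 (93.1%) fell into 4 stretches of at least 5, which together spanned 685 kb or 11.4% of the segment. The first, at 133042 to 189424, held 11 of them with a median pileup of 21 fragments and a median background of 4.32. The second, at 2972505 to 3196179, held 22, with medians of 21 and 6.04. The third, at 4633166 to 4940018, held 48, with medians of 31 and 6.91. The fourth, at 5333621 to 5431696, held 27, with medians of 36 and 7.77. In the rest of the chromosome the 12 peaks of raised background lay in 11 places, with at most 2 in any of them.

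**Figure D4:**
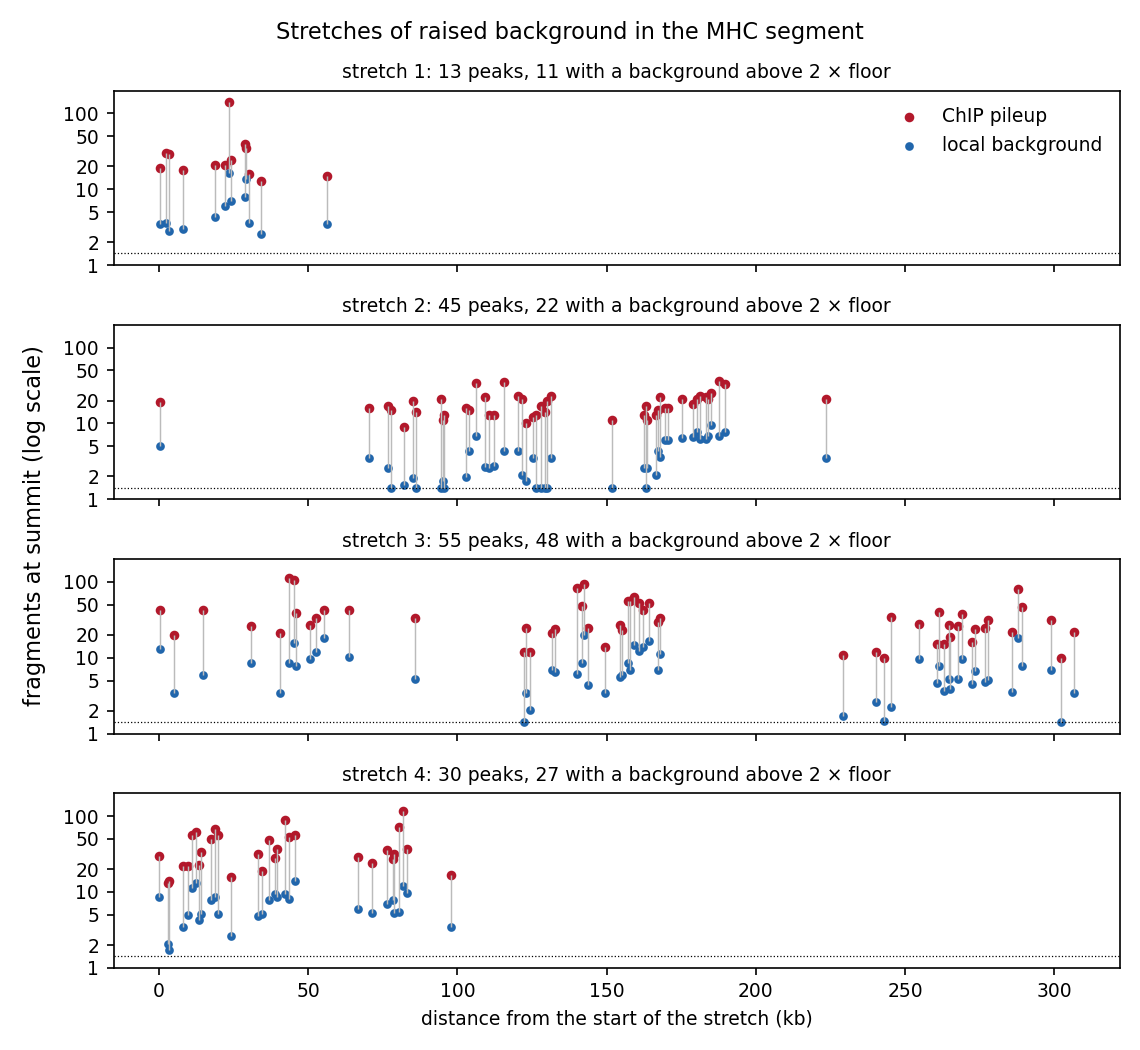
The 4 stretches of the MHC segment in which raised backgrounds were concentrated, with the distance from the start of each stretch on the x axis (kb) and fragments at the summit on the y axis (log scale). Each peak has a red point for its ChIP pileup, a blue point for its local background and a line joining them, and the dotted line is the floor of 1.42 fragments. In stretch 2, 23 of the 45 peaks are not raised. In stretches 1, 3 and 4 this holds for 2 of 13, 7 of 55 and 3 of 30 peaks.

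The 4 stretches were chosen for their dense peaks of raised background and taken from the segment alone, so lower values outside them follow from that choice and are a description. Outside them 62 peaks lay in 5.32 Mb, or 11.7 peaks per Mb, which was 1.41 times the density of the rest (1.06 to 1.84). Their median fold enrichment was 4.45 and their median pileup 11 fragments. With all peaks of raised background left out of both parts, the segment had 14.8 peaks per Mb against 8.04, a ratio of 1.84 (1.45 to 2.33), and ranked at place 55 of the 427 tiles. Against the next 6 Mb the ratio then fell to 0.517 (0.396 to 0.672). Leaving them out took 116 peaks from the segment, 12 from the rest and 3 from the next 6 Mb, with lengths unchanged. The falls in ratio and rank follow from this removal and are a description. The part of the raised input in the density, the pileups and the runs of the segment was not tested.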

How the data were processed

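H2Aub ChIP-seq of ischemic rat myocardium was analysed from 1 deposited peak list. The input library was available only as the background of each peak. The submitters' processing notes name bcl2fastq 2.17, Trimmomatic 0.33, Bowtie 1.1.2 and MACS2 2.1.0, without settings, and hg38, a human assembly, whereas the list has rat chromosomes. Positions are therefore given as listed, 1-based, with the build unsettled. The deposited columns hold the authors' fold enrichment (a linear ratio), −log10 p-value and −log10 q-value at the summit, the summit position, and a score equal to 10 times −log10 q without its decimals.

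Pileup and background were solved from fold enrichment, taken as (pileup + 1) / (background + 1), and the Poisson tail probability. All 17207 peaks met the listed −log10 p within 0.002. The solver was tested on simulated data. Total read numbers are unknown. Intervals are exact Poisson (pileups, densities), exact conditional (ratios), Wilson (shares), Newcombe (differences of shares) and order-statistic (medians). They cover counting error only, since PCR copies were not told apart by molecular identifiers. No p-value was computed. Python 3.11.15, scipy 1.17.1 and pandas 2.3.3 were used.

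The segment, lists and comparisons were chosen with earlier results of these data known. Named peaks were, in each part, the 5 highest by fold enrichment, the 3 widest, the 3 highest by −log10 q, those with a background above 10 times the floor, and the runs with most peaks. The split by raised background, the stretches, the zones of the rest, the run without raised background and the comparison with the next 6 Mb were chosen after values were seen. Alternatives were other q limits, fragments removed, merged intervals, other segment ends, gap limits and solver settings.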

Additional observations from a re-analysis of the deposited data

How the results depend on the processing

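Of 55 values under other settings, 31 stayed within the interval or factor of the reported value. The density ratio, 4.12, was 5.34 for peaks with q up to 0.001, 10.4 for those with q up to 1e-05, 5.53 with 3 fragments removed and 2.28 with groups of peaks counted once. Settings chosen after seeing the data gave 1.84 without raised backgrounds and 1.17 against the next 6 Mb, and 0.517 with both, which reversed the direction. Leaving out raised backgrounds took 116 of the 205 segment peaks with lengths unchanged, so the falls to 1.84 and 0.517 follow from it. The other settings gave 3.53 to 4.83. The median width of the segment, 350 bp, became 514 bp for q up to 1e-05, where the rest had 717.5 bp, and 514 bp with intervals closer than 1000 bp merged, where the rest had 318.5 bp. The median gap, 2067 bp, became 6935 bp after merging and 11439 bp without raised backgrounds, against 11317 bp in the rest, a reversed order that also reflects the smaller number of peaks. The 9 runs fell in number to 5 with q up to 1e-05, when the rest had 0, and 2 without raised backgrounds, when the rest had 13. The median fold enrichment, 4.44, was 4.69 and 5.50 with the limits of 0.001 and 1e-05, against 4.96 and 6.52 in the rest, and 4.70 against 4.55 without raised backgrounds, where the order of the medians turned, as it did with the segment ended at 7 Mb (4.49 against 4.48). The median pileup, 20, was 30 with q up to 1e-05, 12 without raised backgrounds and 24 with no pseudocount in the solver, although that solver could be matched to the listed values at just 29 peaks. The share of raised backgrounds, 56.6%, was 69.9% with q up to 1e-05 and 48.5% with the segment ended at 7 Mb. With the end at 5 Mb it was 53.7%, and the rest rose from 2.92% to 8.85%. It was 43.9% and 21.5% with the limit at 3 and 5 times the floor, where the rest had 1.95% and 0.730%. Rank 4 among tiles became 55 without raised backgrounds. Other causes of these changes were not tested. A typical summit of the rest holds 11 fragments, which limits the order of single peaks. No paired analysis was possible because each kind of library was sequenced once (n = 1), which also left no replicate to leave out.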
